A study of Homo sapiens with 6 samples.

Results

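The metallothionein gene cluster on chromosome 16 was examined in open chromatin lists from zinc-depleted, untreated and zinc-loaded human mammary epithelial cells. Its members were the 10 metallothionein genes MT3, MT2A, MT1E, MT1M, MT1A, MT1B, MT1F, MT1G, MT1H and MT1X, taken by name from GENCODE release 44 among 20033 protein-coding genes. Each gene was read with 5 kb on either side, and the cluster was the 105123 bp from chr16:56584074 to 56689196 (hg38) that hold all 10 windows. ATAC-seq, in which Tn5 transposase cuts and tags accessible DNA, was performed on MCF10A, an established non-tumorigenic breast epithelial line of wild-type genotype. All cells were first kept for 30 min in a phosphate-free buffer, and about 50000 cells were used per library. Ctrl cells then received no addition, TPA cells received 50 μM tris(2-pyridylmethyl)amine, a cell-permeable Zn2+ chelator, and Zn cells received 30 μM ZnCl2, each for 30 min. Each group had 2 libraries of the same line, so 6 in all, and the study's methods call these biological replicates whereas its results call them technical. A p-value therefore measures the spread between these libraries, which may be technical.

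Metallothioneins are small cysteine-rich proteins that bind zinc, copper and cadmium and buffer the labile metal of the cell. MT2A and most MT1 genes are induced by metal through MTF1, a zinc-finger factor that senses Zn2+ and binds metal response elements in their promoters. MT3 is known mainly from the brain. The question for this cluster is which of the related genes lie in open chromatin in these cells, and whether that differs after 30 min of zinc removal or zinc addition.

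The authors called open regions in each library separately with HMMRATAC, a hidden Markov model caller, and the lists give each region's ends and a whole-number score of at least 30. The lists held 18887 to 44641 regions on chromosomes 1 to 22, X and Y, and covered 35.7 to 94.2 Mb. Ctrl replicates 1 and 2 held 25031 and 44641 regions and Zn replicates 1 and 2 held 38069 and 18887, so both groups mixed a long and a short list, while the TPA lists held 35902 and 41376. No read counts were in the lists, so depth is unknown, and a gene outside every region can only be said not to have been called open. Scores need not share a scale between libraries, so each was turned into a percentile, the percent of regions in the same list with a lower score. Among 8 markers of mammary epithelium the start sites of 7, 7, 5, 6, 7 and 2 were open in TPA 1, TPA 2, Ctrl 1, Ctrl 2, Zn 1 and Zn 2. LAMB3 and ITGB4, which encode a laminin chain and an integrin of the basal layer, were open in all 6, and TP63, a basal transcription factor, in 0. Among 6 markers of other cell types only the start site of GFAP, a gene of astrocytes, was open, in Zn 1 at percentile 0, although another of its annotated transcript starts was open in 5 libraries. The short list of Zn 2 therefore also missed marker genes, and its part in the values of Zn 2 that follow was not tested.

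The RefSeq promoter table (GRCh38.p14) matched 4 of the 10 members, MT2A, MT1X, MT1B and MT1H, and not MT3, MT1E, MT1M, MT1A, MT1F and MT1G. The 250 bases before the start site of these 4 genes are shown because 2 of the genes were open and 2 were not. All 4 lie on the plus strand. Capitals mark the core of the metal response element, searched on both strands as TGCACNC and TGCGCNC. The windows are chr16:56608334-56608583 for MT2A, chr16:56682220-56682469 for MT1X, chr16:56651636-56651885 for MT1B and chr16:56669564-56669813 for MT1H.

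MT2A: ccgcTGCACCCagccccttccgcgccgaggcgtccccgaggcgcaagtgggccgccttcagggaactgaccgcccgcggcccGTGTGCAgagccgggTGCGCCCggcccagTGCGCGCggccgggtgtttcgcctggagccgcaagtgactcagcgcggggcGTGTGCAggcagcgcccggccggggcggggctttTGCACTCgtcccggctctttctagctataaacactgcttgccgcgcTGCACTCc
MT1X: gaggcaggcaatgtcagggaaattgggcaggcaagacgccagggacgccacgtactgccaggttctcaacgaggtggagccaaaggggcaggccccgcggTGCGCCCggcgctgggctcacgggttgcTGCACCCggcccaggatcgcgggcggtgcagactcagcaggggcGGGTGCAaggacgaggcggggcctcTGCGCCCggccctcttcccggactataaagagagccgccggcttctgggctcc
MT1B: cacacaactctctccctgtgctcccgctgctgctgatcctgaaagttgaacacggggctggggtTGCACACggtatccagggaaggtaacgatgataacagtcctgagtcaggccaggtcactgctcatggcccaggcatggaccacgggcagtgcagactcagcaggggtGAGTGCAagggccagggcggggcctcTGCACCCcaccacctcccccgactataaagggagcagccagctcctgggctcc
MT1H: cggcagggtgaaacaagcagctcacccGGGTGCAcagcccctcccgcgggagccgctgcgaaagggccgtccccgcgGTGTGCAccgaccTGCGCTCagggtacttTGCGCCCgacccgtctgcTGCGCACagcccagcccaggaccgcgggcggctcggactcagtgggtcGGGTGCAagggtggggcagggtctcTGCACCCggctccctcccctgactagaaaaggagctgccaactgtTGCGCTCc

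The core was counted in windows that run from 250 bases before to 50 bases after the start site. MT2A held 8 cores, of which 7 lie in the sequence shown. MT1H also held 8, MT1X 4 and MT1B 3. At least 1 core occurred in 29.6% of 35116 promoters of this length, as many as 3 in 2.30%, as many as 4 in 0.601% and as many as 8 in 0.0199%. A core began at position -54 in MT2A and at -53 in the other 3 promoters, counted from the start site as 0, and a further core lay on the minus strand at -79 in MT1B and at -78 in MT1H and MT1X. A TATA box, TATAAA, was found at -29 in MT2A and at -30 in MT1B and MT1X, and in 11.5% of all promoters. An AP-1 site, searched as TGANTCA, lay at -104 in MT2A and at -146 in MT1B, against 7.71% of all promoters. The GC box GGGCGG lay in all 4 windows and in 45.0% of all promoters. The GC box at -82 in MT1X shares bases with the core at -78, and none of the other TATA, AP-1 and GC box matches in the 4 promoters overlaps a core.

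Number of cores and open chromatin did not run together over these 4 genes. The whole 300-base MT2A promoter lay in an open region in 6 libraries and that of MT1X in 5, whereas the MT1H promoter, with as many cores as MT2A, and that of MT1B lay in an open region in 0. These letters describe the sequence and do not show where a factor was bound.

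Of the 10 start sites, 4 were called open in at least 1 library, and these 4 are spread along the cluster with unopened members between them. MT2A, the main metallothionein of most cells (chr16:56608584-56609497, plus strand), and MT1E (chr16:56625475-56627112, plus strand) were open in 6 of 6 libraries. MT1F (chr16:56657731-56660698, plus strand) and MT1X (chr16:56682470-56684196, plus strand) were open in 5 of 6, all but Zn 2. The start sites of 39.3% of protein-coding genes were open in all 6 libraries and those of 39.8% in none, so 2 of 10 and 6 of 10 members fell in these classes. The other 6 members, MT3, MT1M, MT1A, MT1B, MT1G and MT1H, were open in 0 of 6 libraries. The number of open member start sites was 4 in each library but Zn 2, where it was 2. Over all protein-coding genes the share of open start sites was 50.4 and 52.6% in TPA, 46.5 and 57.5% in Ctrl, and 55.7 and 43.6% in Zn. It was thus also lowest in Zn 2.

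**Figure D1:**
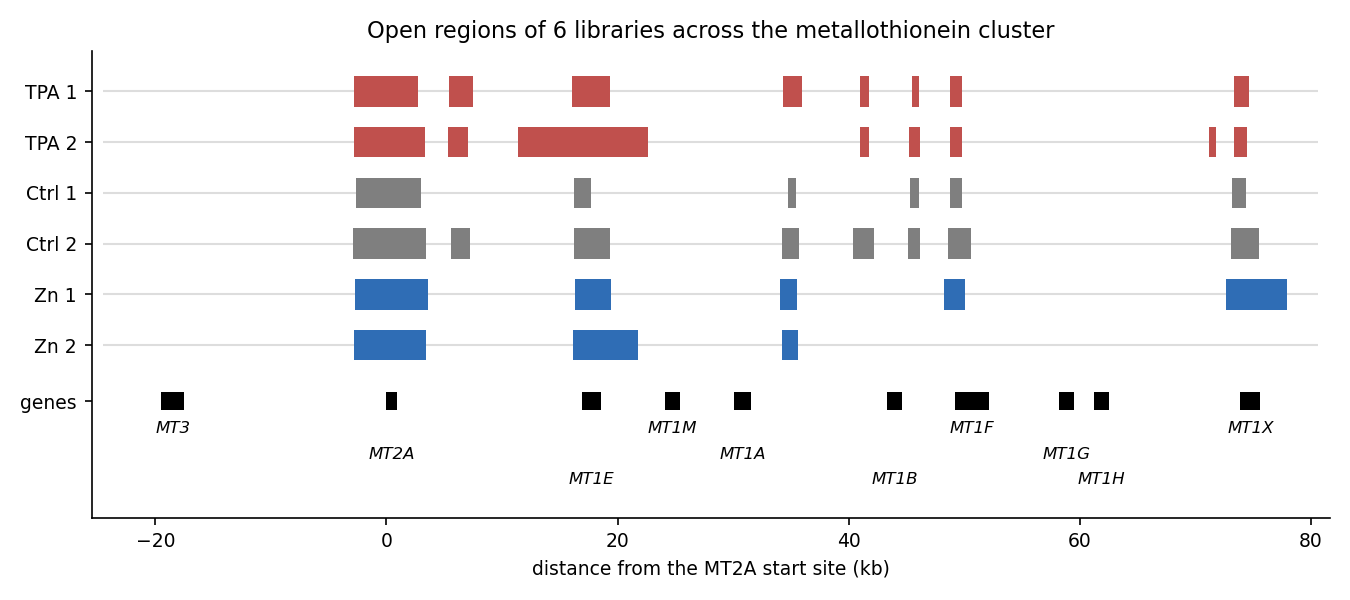
Open regions of the 6 libraries (rows, colored by group) across the cluster, with distance from the MT2A start site in kb on the horizontal axis and the 10 genes as black boxes below. Regions recur at MT2A, MT1E, MT1F and MT1X, and no region lies at MT3, MT1G or MT1H.

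The 6 members without an open start site differed in how near an open region came. MT3 (chr16:56589074-56591088, plus strand), the brain-type member at the upstream end, had no open base within its window in any library, and the nearest edge lay 11414 to 16847 bp from its start. MT1G (chr16:56666730-56668065, minus strand) and MT1H (chr16:56669814-56671129, plus strand) also had none, with the nearest edge at 8915 to 23915 bp and 9967 to 25664 bp. These 3 genes were therefore without a called region in 6 of 6 libraries even with 5 kb on either side. MT1M (chr16:56632659-56633981, plus strand) had open bases in its window in all libraries but Ctrl 1, and its share was 31.3% in TPA 2 and 24.0% in Zn 2 against at most 3.46% elsewhere. Those bases belong to the region over MT1E, whose downstream edge came within 1459 bp of the MT1M start in TPA 2. MT1A (chr16:56638666-56640087, plus strand) had 14.1% of its window open in TPA 1, 0% in TPA 2, 6.65 and 12.4% in Ctrl, and 12.9 and 12.1% in Zn. MT1B (chr16:56651886-56653204, plus strand) had 20.4 and 23.1% open in TPA, 13.9 and 34.2% in Ctrl, 12.0% in Zn 1 and 0% in Zn 2. Both shares come from regions that miss the start site, the nearest at 4005 bp for MT1A and 1126 bp for MT1B. The open bases of the MT1A window belong to a region over the start of the pseudogene MT1DP. Those of the MT1B window include part of the region over the MT1F start wherever that was open, and in Zn 1 nothing else.

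**Figure D2:**
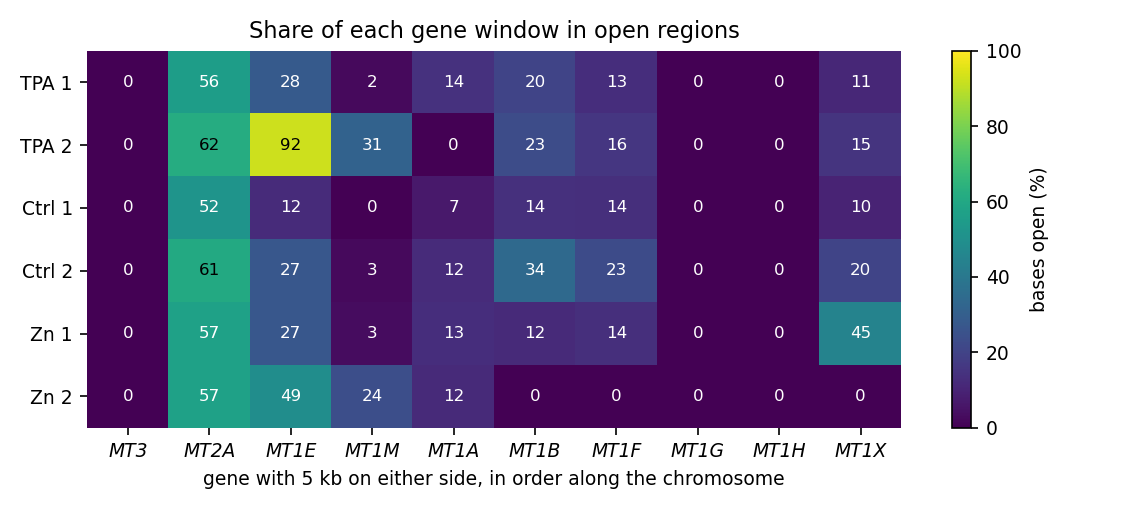
Percent of bases in open regions in each gene with 5 kb on either side (columns, in chromosomal order) for each library (rows), with the value printed in each cell and the color scale from 0 to 100%. MT2A is open over 51.9 to 62.1% of its window in every library, MT1E ranges from 12.3 to 92.2%, and MT3, MT1G and MT1H are at 0% throughout. Neighboring windows overlap, so a region can count for more than 1 gene.

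The region over MT2A was the steadiest of the cluster. It spanned 5530 and 6150 bp in TPA, 5660 and 6320 bp in Ctrl, and 6270 and 6250 bp in Zn. Its width exceeded that of at least 97.2% of the regions in each list. It reached 2663 to 2923 bp upstream of the start site in the 6 libraries. It reached 2706 to 3396 bp downstream in TPA and Ctrl, and 3586 and 3456 bp downstream in the Zn libraries. Both Zn edges thus lay further downstream than the 4 others, by 60 bp at the closest pair, while the TPA and Ctrl edges spanned 690 bp. How often the edges at other start sites separate in this way was not computed. The same region also held the start site of the lncRNA ENSG00000260823, and without reads the openness of the neighboring starts cannot be told apart.

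Regions at MT1F were short, at 1020 and 1100 bp in TPA, 1040 and 1970 bp in Ctrl and 1750 bp in Zn 1. The MT1X region was of like width in 3 libraries, at 1330 bp in TPA 1, 1190 bp in TPA 2 and 1160 bp in Ctrl 1. It was 2400 bp in Ctrl 2 and 5270 bp in Zn 1, where it ran 4000 bp downstream of the start. In Zn 2 neither gene had a region, and the nearest edge was 13581 bp from the MT1F start and 38320 bp from the MT1X start. The Zn libraries therefore held both the widest MT1X region and no MT1X region.

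MT1E varied most in width. Its region measured 3310 bp in TPA 1, 11270 bp in TPA 2, 1430 bp in Ctrl 1, 3180 bp in Ctrl 2, 3150 bp in Zn 1 and 5700 bp in Zn 2. The upstream edge lay 574 to 854 bp from the start in 5 libraries and 5544 bp away in TPA 2. The downstream edge lay 795 bp away in Ctrl 1, 4905 bp away in Zn 2 and 5725 bp away in TPA 2. Replicates of a group differed by 7960 bp in TPA, 1750 bp in Ctrl and 2550 bp in Zn. Both TPA regions were wider than both Ctrl regions, by 130 bp at the nearest pair, while the Zn widths overlapped those of Ctrl and TPA. The share of all start sites that separate in width was not computed, so this is a description only.

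**Figure D3:**
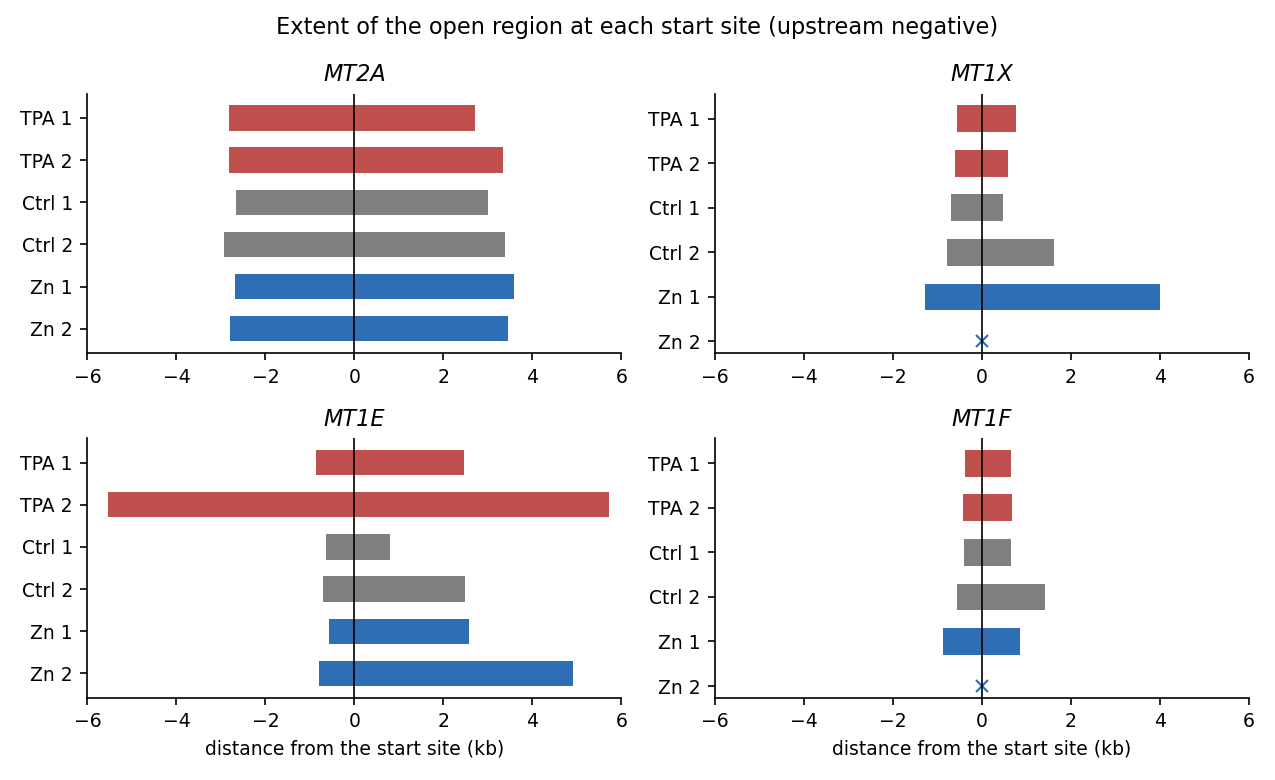
Extent of the open region at the start sites of MT2A, MT1X, MT1E and MT1F in each library, in kb from the start site (upstream negative, groups by color, a cross where the start site was not open). MT2A keeps its extent across 6 libraries, MT1E reaches 5544 bp upstream only in TPA 2, and MT1X reaches 4000 bp downstream only in Zn 1.

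Score percentiles ranked the open members in the same order in 4 libraries. From the highest this order was MT2A, MT1X, MT1E and MT1F, in both TPA and both Ctrl libraries. In Zn 1 MT1E stood first, before MT2A, MT1X and MT1F, and in Zn 2 only MT2A and MT1E were open, in that order. Over the libraries with a region the percentile was 80.3 ± 5.25 (SD, n = 6) for MT2A, 66.6 ± 5.58 (SD, n = 5) for MT1X, 49.6 ± 24.3 (SD, n = 6) for MT1E and 35.5 ± 16.5 (SD, n = 5) for MT1F. MT2A was above MT1X in all 5 libraries with both, and the means differ by more than either SD. MT1E was above MT1F in all 5 libraries with both, although the means differ by less than either SD. MT1X was above MT1E in 4 of 5 libraries, with Zn 1 the exception, and these means differ by less than the SD of MT1E. Among protein-coding start sites open in the same library the median percentile was 66.6 to 80.6, so MT2A lay near or above the middle of open promoters. In these terms MT2A scored higher than 62.5 and 68.4% of open start sites in TPA, 50.2 and 48.0% in Ctrl, and 59.5 and 68.5% in Zn. MT1E scored higher than 21.0 and 13.0% in TPA, 16 and 34.4% in Ctrl, and 69.6 and 12.8% in Zn.

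With TPA the score percentiles of 3 of the 4 open members did not overlap those of Ctrl, and they went in different directions. For MT2A the percentiles were 80.8 and 86.5 in TPA and 70.7 and 79.6 in Ctrl, so both TPA libraries were higher, by 1.2 points at the nearest pair. MT1F, which was at 13.1 and 30.1 in TPA and 31.0 and 52.3 in Ctrl, was lower in both TPA libraries. MT1X was at 65.9 in both TPA libraries and at 66.1 and 75.3 in Ctrl, so its separation was 0.2 points at the nearest pair, and it was lost when percentiles were taken among regions of like width or among regions at start sites. MT1E overlapped, at 43.4 and 36.3 in TPA and 34.2 and 70.6 in Ctrl. It was lower in TPA among regions of like width, at 21.4 and 14.8 against 22.3 and 43.8, and it was lower in TPA without Ctrl 1 and higher without Ctrl 2. Among 8918 protein-coding start sites open in these 4 libraries, 11.8% were higher and 21.9% lower in both TPA libraries. Single members in both directions are therefore read against shares of that size.

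With ZnCl2 only MT2A and MT1E were open in all 4 libraries. MT2A was at 82.9 and 81.1 in Zn, both above the 70.7 and 79.6 of Ctrl, by 1.5 points at the nearest pair. MT1E stood at 87.9 in Zn 1, its highest value in any library, and at 25.3 in Zn 2, its lowest, on either side of the Ctrl values of 34.2 and 70.6. Among 8093 start sites open in these 4 libraries 2.74% were higher and 13.6% lower in both Zn libraries. The 1 of 2 members called higher, MT2A, thus belongs to a direction that was rare among start sites when full lists were used. When each list was limited to the same number of its highest scoring regions, MT2A was again higher in both Zn and in both TPA libraries than in Ctrl. However, 22.6% of start sites were then higher with Zn, and 14.1% higher and 33.8% lower with TPA. That number is the full length of the Zn 2 list, so Zn 2 kept its 81.1 while percentiles in cut lists fell. Its place above Ctrl was thus fixed in advance, and the 22.6% was taken with the same uncut list. For TPA against Zn, MT2A and MT1E overlapped, so 0 of 2 members separated, beside 21.8% of start sites higher and 17.7% lower in both TPA libraries. The study's own test on read counts reported increased accessibility with ZnCl2 at the region over MT1E and, less strongly, at that over MT2A. A percentile among called regions is a different measure, and the test on counts could not be repeated from these lists.

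**Figure D4:**
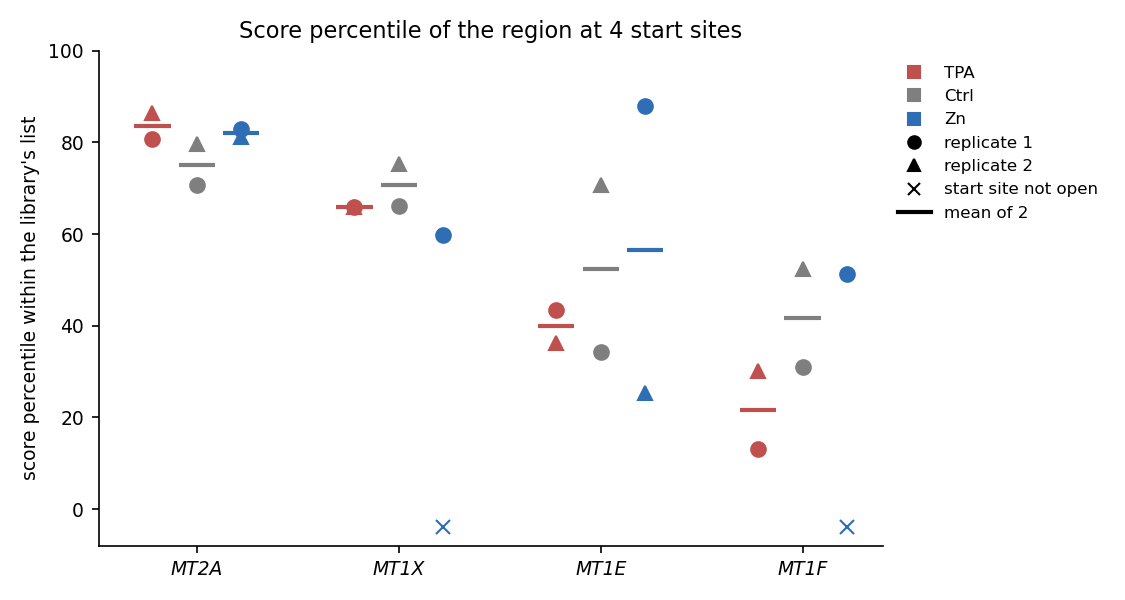
Score percentile of the open region at the start sites of MT2A, MT1X, MT1E and MT1F, by group (color) and replicate (shape), with a bar at the mean of 2 libraries and a cross below 0 where the start site was not open. Both TPA and both Zn points of MT2A lie above both Ctrl points, and the Zn points of MT1E lie at 87.9 and 25.3.

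In lists limited to about 18887 regions, which left Zn 2 whole, MT2A was open in 6 libraries, MT1X in all but Zn 2, and MT1F in Ctrl 1 and Zn 1. MT1E was then open in both Ctrl and both Zn libraries and in neither TPA library. TPA 1 missed it by a small margin, with a score of 47 where the limited list began at 49. With the upper 50% of each list in place of an equal number, MT1E was open in Ctrl 2 and Zn 1 alone, so this split between TPA and the other groups was lost.

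Outside the 4 open start sites, the cluster held 5 further elements, where an element is a set of regions of the 6 libraries that overlap or touch. Of the 9 elements in all, 2 were open in all 6 libraries, those over MT2A and MT1E, beside 15852 of 49527 merged regions in the genome. An element at chr16:56642671-56644520 held the start sites of the pseudogene MT1DP and the transcript ENSG00000291095. Its percentile was 3.39 in TPA 1, 24.2 in Ctrl 1, 58.0 in Ctrl 2, 74.4 in Zn 1 and 55.2 in Zn 2, and it was not called in TPA 2. The other MT genes and pseudogenes, MT4, MT1L, MT1JP, MT1CP and MT1IP, had no open start site in any library.

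An element without a start site lay 6402 bp from the MT2A start at chr16:56613871-56616100, at percentile 43.4 in TPA 1, 53.2 in TPA 2 and 17.1 in Ctrl 2. Another, at chr16:56648911-56650760 over the pseudogene MT1CP, was at 37.4, 15.5 and 24.5 in the same libraries. The element at chr16:56653741-56654740, downstream of MT1B, was at 35.4 and 9.73 in TPA and 0 and 30.6 in Ctrl, and 13.7% of its 75-base windows occur as exact copies elsewhere in hg38. The last, at chr16:56679781-56680340 upstream of MT1X, was in TPA 2 alone at 6.68. Their percentiles lay between 0 and 53.2, and none of the 4 was called in a Zn library.

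Elements open in both libraries of a group and neither of another were counted beside the share of merged regions over the genome. Open in both TPA and neither Zn library were 3 of 9, the first 3 just described, against 9.73% of 49527 merged regions. Open in both Ctrl and neither Zn library was 1 of 9, the element downstream of MT1B, against 1.73%. For both TPA and neither Ctrl, both Ctrl and neither TPA, both Zn and neither Ctrl, and both Zn and neither TPA the count was 0 of 9, with 2.04%, 0.703%, 0.172% and 0.991% of merged regions. The TPA lists were both long and 1 Zn list was the shortest, and the part of list length in these counts was not tested. In lists of equal number, which also start at a different score in each library, the 3 elements no longer separated TPA from Zn, since 2 were kept in no library and the first in TPA 2 alone. Instead the regions over MT1E and MT1DP were open in both Ctrl and both Zn libraries and in neither TPA library, as were 4.40% of 26479 merged regions for Ctrl over TPA and 8.03% for Zn over TPA. With the upper 50% of each list the MT1DP region was open in Ctrl 2 and both Zn libraries, and that over MT1E in Ctrl 2 and Zn 1.

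The share of the whole cluster in open regions was 15.6 and 22.6% in TPA, 10.2 and 18.8% in Ctrl, and 17.0 and 12.7% in Zn, and the groups overlapped. In the same libraries 1.70 and 2.50%, 1.16 and 3.05%, and 2.1 and 1.44% of the genome was open. The mean share was 19.1% ± 4.95 (SD, n = 2) in TPA, 14.5% ± 6.06 (SD, n = 2) in Ctrl and 14.9% ± 3.08 (SD, n = 2) in Zn. The difference was 4.60 percentage points for TPA minus Ctrl (two-sided exact permutation test, p = 0.667), 0.338 for Zn minus Ctrl (exact permutation p = 1) and 4.26 for TPA minus Zn (exact permutation p = 0.667). None was larger than the spread between replicates, and the smallest p that 2 libraries against 2 allow is 0.333. Leaving out 1 library moved TPA minus Ctrl between 0.314 without Ctrl 1 and 8.88 without Ctrl 2, and TPA minus Zn between 0.761 without TPA 2 and 7.76 when TPA 1 was dropped. In lists of equal number, where Zn 2 was not cut, both differences with TPA reversed, and Zn minus Ctrl kept its sign. TPA was then at 7.60% ± 1.52 (SD, n = 2), Ctrl at 11.1% ± 2.20 (SD, n = 2) and Zn at 14.9% ± 3.08 (SD, n = 2), with an exact permutation p of 0.333 for each difference. The values were 6.53 and 8.68% in TPA, 9.56 and 12.7% in Ctrl and 17 and 12.7% in Zn, where the nearest TPA and Ctrl libraries were 930 bp apart and the nearest Ctrl and Zn libraries 10 bp. The direction of the difference between TPA and Ctrl thus depends on how much of each list is used.

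Base composition overlapped between open and unopened members. Within 500 bp of the start site, GC content was 59.9% at MT2A, 62.0% at MT1E, 61.7% at MT1F and 61.3% at MT1X, and 57.1 to 65.1% at the 6 members without an open start site. The CpG observed to expected ratio was 0.774 at MT2A, 0.710 at MT1E, 0.565 at MT1X and 0.558 at MT1F. Among the other members it was 0.785 at MT3, 0.667 at MT1A, 0.595 at MT1M, 0.500 at MT1H, 0.494 at MT1G and 0.209 at MT1B. Protein-coding start sites open in all 6 libraries had a median GC content of 62.8% and a median ratio of 0.794, and those open in no library 52.2% and 0.310. MT3, never open, had the composition of the former, and only MT1B lay below the median ratio of the latter. Metallothionein genes are near copies of each other, so reads could in principle map to more than 1 gene. Of the 75-base windows around the start site, 75 being the read length, 0% occurred as exact copies elsewhere in hg38 at 9 members and 0.432% at MT1M. Over the genes with 5 kb on either side the share ran from 0% at MT1X to 3.57% at MT1H. Near copies and trimmed reads were not counted, so whether reads were shared between members was not tested.

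**Figure D5:**
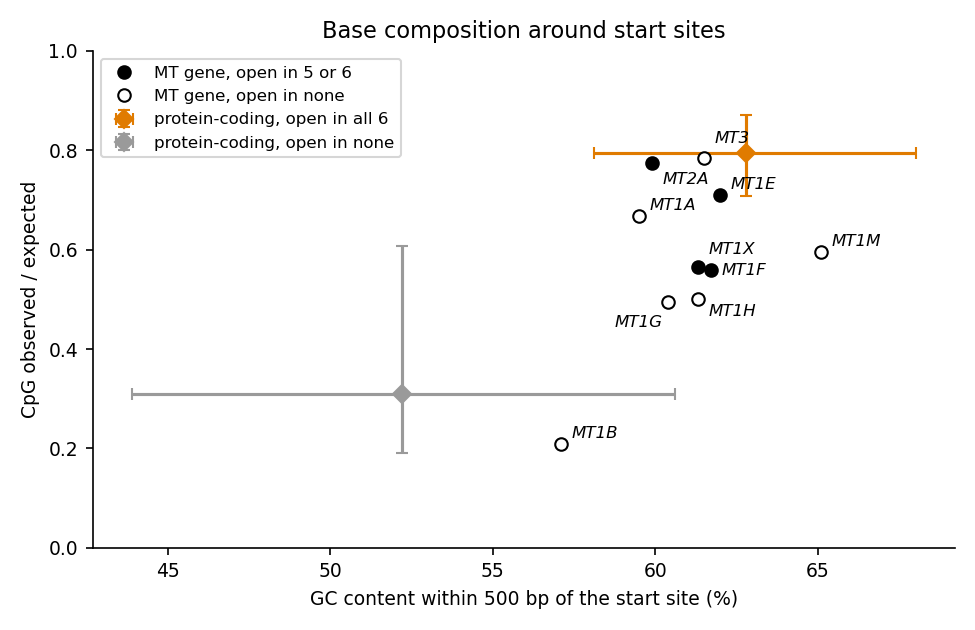
GC content (percent, horizontal) and CpG observed to expected ratio (vertical) within 500 bp of the start sites of the 10 members, filled where open in 5 or 6 libraries and empty where open in none. Diamonds and bars give the median and the quartiles of all protein-coding start sites open in all 6 libraries or in none, and filled and empty points overlap in both measures.

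Other genes of the MTF1 pathway and the neighbors of the cluster gave a setting for these values. MTF1 itself was open in 6 of 6 libraries, at percentiles 82.1 and 92.0 in TPA, 70.7 and 88.1 in Ctrl and 84.7 and 81.1 in Zn, which overlap between groups. SLC30A1, the zinc exporter of the plasma membrane and an MTF1 target, was open in 6 of 6 at 98.6 to 99.5, above any metallothionein gene. GCLC, the catalytic subunit of glutathione synthesis, was open in 4 of 6, the growth factor PGF in 2 of 6 and the zinc importer SLC39A10 in 0 of 6, although another annotated transcript start of GCLC and of SLC39A10 was open in 6. Of the 5 pathway genes, 2 or 3 were open in TPA, 3 or 4 in Ctrl and 3 in Zn. Next to the cluster, the start site of the nuclear pore gene NUP93 was open in 6 libraries, and that of BBS2, a gene of the primary cilium, in 0 at its outermost annotated start but in 6 at another of its transcript starts.

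The genes with percentiles most like those of MT2A over the 6 libraries, among 7878 start sites open in all, were BCL2L12, SHF and OXLD1, with a root mean square distance of 3.11, 3.45 and 3.47 points. For MT1E these were GOT2, MAOA and EFEMP1, at 6.84, 7.39 and 7.51 points. GOT2 shared the high value in Zn 1, at 84.3, and the low value in Zn 2, at 32.0.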

How the data were processed

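Condition and replicate number were taken from the sample labels. The authors checked reads with FastQC 0.11.8, trimmed them with BBDuk, mapped pairs to hg38 with HISAT2 2.1.0, used SAMtools 1.8 (versions per the submitters' processing notes) and ran HMMRATAC on each library by itself (version not given in the sources used here). The deposited lists hold the ends of each region and a score in column 5 whose kind the sources do not name. Peak merging and blacklist removal came later in the study and were not applied. The lists hold no counts, so depth is unknown and no counting interval was computed.

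A start site was open where a region covered the start of the gene record in GENCODE release 44. Only chromosomes 1 to 22, X and Y entered. The percentile of a score is the percent of regions in the same list with a lower score, and groups did not overlap where both values of a group lay above both of the other. Regions of the 6 libraries that overlapped or touched were merged. Only the percent of cluster bases open was tested, by a two-sided exact permutation test over libraries. Values per gene are described beside the same share over all protein-coding start sites. The genes named are all 10 members, the genes of the fixed lists, and the 3 genes nearest in percentile to each member open in all libraries. Members and lists were chosen with earlier results of these data known. Alternatives were an equal number of regions (18887, ties kept), the upper 50% of each list, all contigs, other extents and definitions, leaving out each library and the replicate block. The equal number was the length of the Zn 2 list, which was therefore not cut. The shares of start sites and of merged regions in the lists of equal number were added after seeing the data. Promoter sequence was taken from RefSeq (GRCh38.p14). Procedures were tested on simulated data. Python 3.11.15, NumPy 2.4.6, pandas 2.3.3, SciPy 1.17.1 and Matplotlib 3.10.9 were used.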

Additional observations from a re-analysis of the deposited data

How the results depend on the processing

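The difference in the percent of cluster bases open was -3.51 points for TPA minus Ctrl and -7.26 for TPA minus Zn with an equal number of regions, and -2.92 and -4.55 with the upper 50% of each list, so both reversed. Zn minus Ctrl was -0.822 without the 5 kb on either side and ranged from -3.95 to 4.62 when 1 library was left out, with -3.95 without Ctrl 1 and -1.84 without Zn 1. The mean number of open member start sites was lower with TPA than in Ctrl with a difference of -1.5 for an equal number of regions and -1 for the upper 50%, and the difference from Zn was -1 and -0.5. These shorter lists drop low-scoring regions by construction, and no share of all protein-coding start sites is set beside these counts. The number of members without overlap ranged from 1 to 3 for Zn against Ctrl and from 1 to 3 for TPA against Zn when 1 library was left out. The 3 in both comparisons came without Zn 2. For TPA against Ctrl it was 3 without either TPA library and 4 without either Ctrl library. A group of 1 library overlaps less by construction, and no share of all start sites is set beside these counts. MT1E was then higher in Zn than in Ctrl without Zn 2 and lower without Zn 1. MT2A remained higher in TPA and in Zn than in Ctrl under each setting run. Leaving out 1 library or using the replicate block could not undo this, since the same values enter. An equal number of regions left Zn 2 whole, so its place above Ctrl was fixed there too. A window of 500 bp around the start site returned the same percentiles, and all contigs nearly the same. The upper 50% cuts each list near the same percentile, so it largely keeps the order of the libraries. Percentiles among regions of like width or at start sites did compare MT2A with another set of regions, but no share of all start sites is set beside them. The replicate block gave the same differences of 4.60 (sign-flip permutation p = 0.5, the smallest possible), 0.338 (p = 1) and 4.26 (p = 1), and the same counts of 3, 1 and 0 members. Over 7880 genes the replicate differences correlated at 0.173 between TPA and Ctrl, -0.458 between Zn and Ctrl and -0.140 between TPA and Zn. The longer list was replicate 2 in Ctrl and replicate 1 in Zn, and the part of list length in these values was not tested. They therefore cannot tell whether the replicate numbers pair the libraries. The other 76 recomputed values did not reverse, but they did not always keep their size, and the replicate block repeats the main differences and counts by construction. Without Zn 2 the difference in open member start sites went from -1 to 0 for Zn minus Ctrl and from 1 to 0 for TPA minus Zn. In the percent of cluster bases open, TPA minus Ctrl ranged from 0.314 to 8.88 and TPA minus Zn from 0.761 to 7.76 when 1 library was left out. Zn minus Ctrl was 3.74 there with an equal number of regions. The 3 members without overlap between TPA and Ctrl included MT1E in place of MT1X among regions of like width. MT1E separated there by its TPA value of 21.4 against 22.3 in Ctrl at the nearest pair. No share of all start sites is set beside that count either. With 2 libraries in each group the smallest possible p was 0.333, and 0.5 with the replicate block. These tests therefore could not detect a difference of any size. The lists also differed in length and held no read counts.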
